A study of Mus musculus with 15 samples.

Results

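The comparison described here spans the whole postnatal course of the mouse auditory nerve: adult animals against pups at postnatal day 3 (P3). It uses 6 of the 15 libraries of the series, the 3 labelled adult and the 3 labelled P3, and every gene of the deposited table. The other libraries come from P7, P14 and P21, with 3 at each age, and enter where the course between the end points is given. Each library was an Illumina TruSeq RNA library made from the total RNA of auditory nerve microdissected from a single mouse, with the nerves of its left and right cochlea pooled. No library carries a named allele, transgene or treatment in its labels, and strain, sex, litter and the age of the adults are not given in the sources used here. The adult columns are titled CTRL, which the labels do not explain. Nothing says that the mice of an age came from separate litters, so p-values measure the spread between these samples.

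The auditory nerve is made of the axons of spiral ganglion neurons, which carry signals from the hair cells of the cochlea to the brainstem. Mice are deaf at birth; in the following weeks the axons become myelinated by Schwann cells in the cochlea and by oligodendrocytes near the brainstem, sodium channels gather at nodes of Ranvier, and the onset of hearing follows. Over the same weeks the bony canal that encloses the ganglion is laid down and remodelled, and a dissected nerve can carry some of that bone, cartilage and neighbouring cochlear tissue with it.

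The reads recovered from the deposited values numbered 35250155 to 41306627 per library among these 6, and 3 reads corresponded to 2.53 to 3.65 normalized counts. Values below are normalized counts in the order of replicates 1, 2 and 3. Changes are log2 differences of (normalized count + 1), adult minus P3, with their standard error, and adjusted p-values are limma's moderated test with Benjamini-Hochberg adjustment over all genes tested. The Y-linked gene Eif2s3y stood at 2774, 2821 and 2751 at P3 and at 1689, 1707 and 26.7 in adults, and Xist, the X-linked RNA of X inactivation, at 18.5, 18 and 4.71 against 508, 1107 and 44422. Adult replicate 3 therefore stood apart from the other 5 libraries in both genes. Xist was called higher (7.83 ± 2.55, adjusted p = 0.0147), but without adult replicate 3 its difference was 5.87 and not called. Without adult replicate 1 it was 9.09 and without adult replicate 2 it was 8.53.

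Of 16723 genes tested, 5751 (34.4%) were called higher in adults and 5744 (34.3%) lower, so 68.7% of all genes tested passed the test in one direction or the other. The counts with at least a 2-fold change were 2636 higher (15.8%) and 2883 lower (17.2%). The 3 adult libraries lay wholly above the 3 P3 libraries in 38.5% of the genes tested and wholly below them in 37.8%, which is 76.4% together. The median difference over all genes tested was -0.01. With shares this large, a called gene is ordinary in this comparison, and each group of genes below is set against 34.4% and 34.3%.

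**Figure D1:**
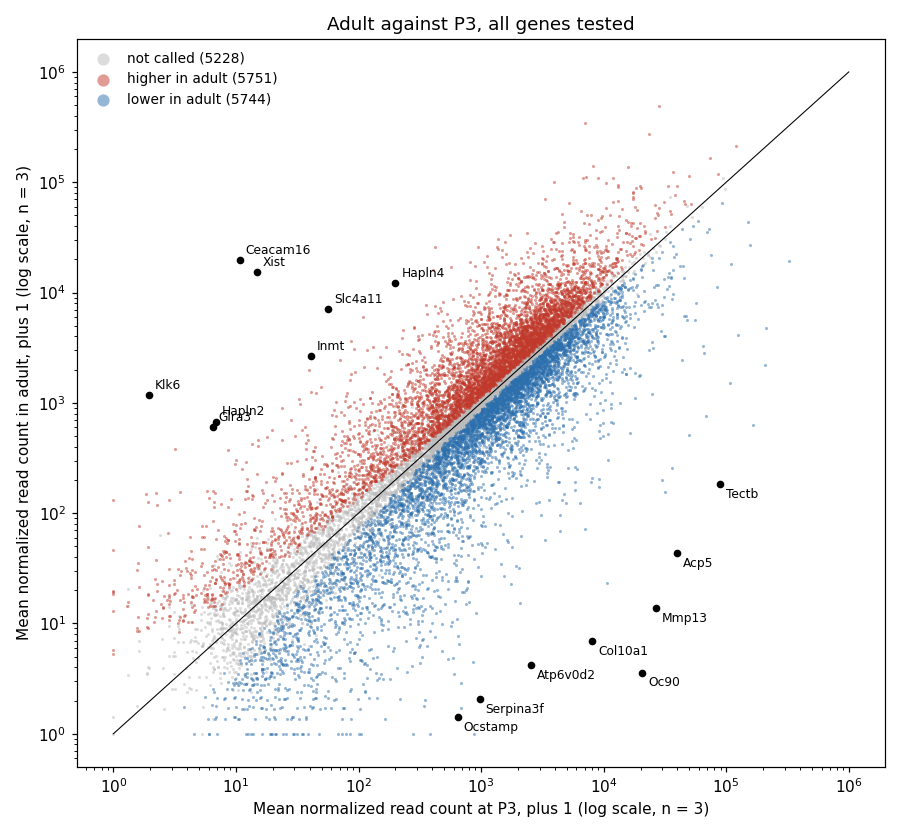
Mean normalized count + 1 at P3 (horizontal, log axis) against that in adults (vertical, log axis) for the 16723 genes tested; red points are the 5751 genes called higher in adults, blue points the 5744 called lower and grey points those not called. Labelled genes are the 8 largest rises and 8 largest falls among abundant genes, with Ceacam16 and Klk6 at the upper left and Oc90 and Mmp13 at the lower right.

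Among abundant genes, the largest rise was in Ceacam16, a protein of the tectorial membrane that overlies the hair cells (chr7:19852097-19861299, mm10). It stood at 9.27, 8.54 and 11.3 at P3 and at 12777, 21875 and 24767 in adults (10.81 ± 0.29, adjusted p = 1.42e-11). The mean at P14, 53013, was higher than that of adults. Klk6, a secreted protease of oligodendrocytes, rose from 0, 2.85 and 0 to 1429, 1020 and 1056 (9.53 ± 0.91, adjusted p = 6.14e-07). The P3 libraries held 3 Klk6 reads between them, so its ratio of reads was 1295 with a 95% counting interval of 443 to 6284, and without P3 replicate 2 the fitted difference was 10.17. Slc4a11, a transporter of cochlear fibrocytes, rose from 59.0, 57.9 and 49.9 to 5719, 9596 and 5901 (6.93 ± 0.27, adjusted p = 1.49e-10). Hapln4, a link protein of the hyaluronan matrix around axons and synapses, rose from 218, 124 and 255 to 10817, 13319 and 12487 (5.99 ± 0.22, adjusted p = 1.02e-10). The other genes of this rank were Hapln2, the link protein of central nodes (6.81 ± 0.90), the glycine receptor subunit Glra3 (6.52 ± 0.45) and the methyltransferase Inmt (5.98 ± 0.23). A lack of overlap between the ages was part of the rule that picked these genes and the largest falls below.

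The largest fall was in Oc90, an otoconial protein of the inner ear (chr15:65876053-65912287, mm10), from 21708, 24718 and 15752 to 3.12, 2.19 and 2.43 (-12.48 ± 0.25, adjusted p = 1.22e-12). The 3 adult libraries together held 7 Oc90 reads, for a ratio of reads of 7999 (95% counting interval 3882 to 19897). Tectb, a tectorial membrane protein, fell from 82890, 88698 and 94152 to 151, 145 and 252 (-8.96 ± 0.24, adjusted p = 1.42e-11), after a mean of 167960 at P7. Of the other 6 genes with the largest falls, 5 belong to growing bone and cartilage and to the osteoclasts that resorb them. Mmp13, the collagenase of hypertrophic cartilage and bone, fell from 23276, 31709 and 24815 to 23.9, 2.19 and 12.2 (-11.34 ± 0.92, adjusted p = 1.28e-07), with -11.99 without adult replicate 1 and -10.51 without adult replicate 2. Col10a1, the collagen of hypertrophic cartilage, fell from 8262, 9041 and 6901 to 3.12, 12 and 2.43 (-10.46 ± 0.89), with -11.06 without adult replicate 2. The tartrate-resistant phosphatase Acp5 fell from 26868, 49405 and 41960 to 57.2, 27.3 and 42.5 (-9.84 ± 0.69, adjusted p = 3e-08). The proton pump subunit Atp6v0d2 fell by 9.40 on the log2 scale, and Ocstamp, which osteoclast precursors need to fuse, by 8.91. Adult libraries held 9 reads of Atp6v0d2 and 1 of Ocstamp, giving ratios of reads of 760 (400 to 1662) and 1718 (308 to 67901). Serpina3f, a serine protease inhibitor of a multigene cluster whose members may share reads, fell from 494, 1281 and 1140 to 2.08, 1.09 and 0 (-8.91 ± 0.91), a ratio of reads of 857 (293 to 4158).

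Neuronal genes rose as a group. Of 25 spiral ganglion neuron genes, 20 were called higher, 0 lower and 5 were not called, with a median difference of 1.96. In bulk samples, more cells of a type and more RNA per cell cannot be told apart, and the same holds for each fall below. Slc17a7, the vesicular glutamate transporter of these neurons, stood at 2920, 2549 and 3877 at P3 and 23635, 29535 and 26888 in adults (3.11 ± 0.13, adjusted p = 2.4e-10). Nefh, the heavy neurofilament of large axons, stood at 10375, 10506 and 15160 against 105126, 111819 and 108969 (3.20 ± 0.17, adjusted p = 1.98e-09). Snap25, Thy1, Eno2 and the calcium buffer Calb2 rose by 3.98, 3.28, 2.64 and 4.02. Genes reported to divide type I neurons into subtypes rose in 10 of 12 cases (median 2.53), among them Lypd1 (3.97), Grm8 (2.98) and Lrrc52 (4.53). Cacna2d1, a calcium channel subunit of that list, fell from 2993, 3159 and 3001 to 1445, 1652 and 1294 (-1.07 ± 0.10).

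Of 27 genes of the node of Ranvier and the flanking paranode and juxtaparanode, 23 were called higher and 2 lower, with a median difference of 2.23. The nodal sodium channel Scn8a stood at 1437, 1074 and 1964 at P3 and at 19930, 21745 and 20847 in adults (3.85 ± 0.19, adjusted p = 1.06e-09). Its beta subunit Scn4b rose from 374, 339 and 540 to 22822, 27729 and 26433 (5.96 ± 0.18, adjusted p = 2.23e-11). Kcnab2, the beta subunit of the juxtaparanodal potassium channels, rose by 4.28, and Gldn, the Schwann cell ligand that gathers sodium channels, by 2.23. The lowest adult library exceeded the highest P3 library in 22 of the 27 genes, against 38.5% of all genes tested. The exceptions in direction were Vcan, a chondroitin sulphate proteoglycan of immature matrix, which fell from 4937, 6216 and 6847 to 574, 417 and 380 (-3.72 ± 0.51, adjusted p = 2.21e-05), and the membrane skeleton gene Epb41l2 (-0.85 ± 0.12).

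Of 26 genes of synaptic vesicles and transmitter release, 23 were called higher and 2 lower (median 2.60). Syt2, the calcium sensor of fast release, stood at 1108, 996 and 1932 at P3 and 23867, 28000 and 25917 in adults (4.33 ± 0.24, adjusted p = 3.05e-09). Vamp1, a vesicle SNARE, rose by 3.66 and the SNARE ATPase Nsf by 2.90. Stx1a, a plasma membrane SNARE, went the other way, from 1096, 1061 and 1003 to 266, 219 and 214 (-2.18 ± 0.11, adjusted p = 1.81e-09). Cplx2, a complexin, fell from 3285, 3396 and 4202 to 3257, 1065 and 1106 (-1.20 ± 0.33), with adult replicate 1 just below the lowest P3 library, and was not called without the 4 libraries of the series that are low in Eif2s3y (-0.95). The gene not called was Syt1, another calcium sensor, at 3019, 2245 and 3214 against 6663, 323 and 630 (-1.33 ± 0.86, adjusted p = 0.185). Adult replicate 1 alone was high, and without it Syt1 was called lower at -2.63.

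Among 26 potassium and HCN channel genes, 15 were called higher and 3 lower (median 1.47). Kcnc1, a Kv3 channel of fast-firing neurons, rose from 994, 727 and 1633 to 20151, 22884 and 21832 (4.35 ± 0.22, adjusted p = 1.72e-09). The hyperpolarization-activated channel Hcn2 rose by 4.13 and the leak channel Kcnk1 by 2.59. Kcna4, an A-type channel, fell from 384, 378 and 345 to 78.0, 45.9 and 72.9 (-2.51 ± 0.21, adjusted p = 1.87e-07). The other 2 falls did not pass the test once a single library was left out. Kcnt2 (-1.40) was not called without P3 replicate 3 (-1.26), without adult replicate 3 (-0.95) or under quantile normalization (-0.87), and Kcna6 (-0.55) was not called without P3 replicate 2 or 3 or adult replicate 2 or 3 (-0.43 to -0.54).

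Genes of axon growth and guidance moved mostly the other way, with 4 higher and 19 lower of 30 (median -0.65). Gap43, the growth cone protein, stood at 1934, 1490 and 1930 at P3 and 252, 76.6 and 79.0 in adults (-3.93 ± 0.41, adjusted p = 1.49e-06). Marcks, a membrane-actin linker, fell from 20109, 19263 and 19706 to 1949, 1602 and 1795 (-3.47 ± 0.17, adjusted p = 1.32e-09), with Marcksl1 at -2.49 and Basp1 at -2.25. The tubulin Tubb2b fell by 3.46 and Dpysl3, a collapsin response mediator, by 1.72. The 4 genes that rose were the adhesion molecule L1cam (1.62), the semaphorin co-receptor Plxna4 (1.89), the ephrin receptor Epha4 (0.65) and its ligand Efnb2 (0.38), the last not called under quantile normalization (0.13). L1cam and Plxna4 adult libraries, at 5018 to 5761 and 6426 to 6775, lay above P3 libraries of 1427 to 2155 and 1507 to 2262.

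**Figure D2:**
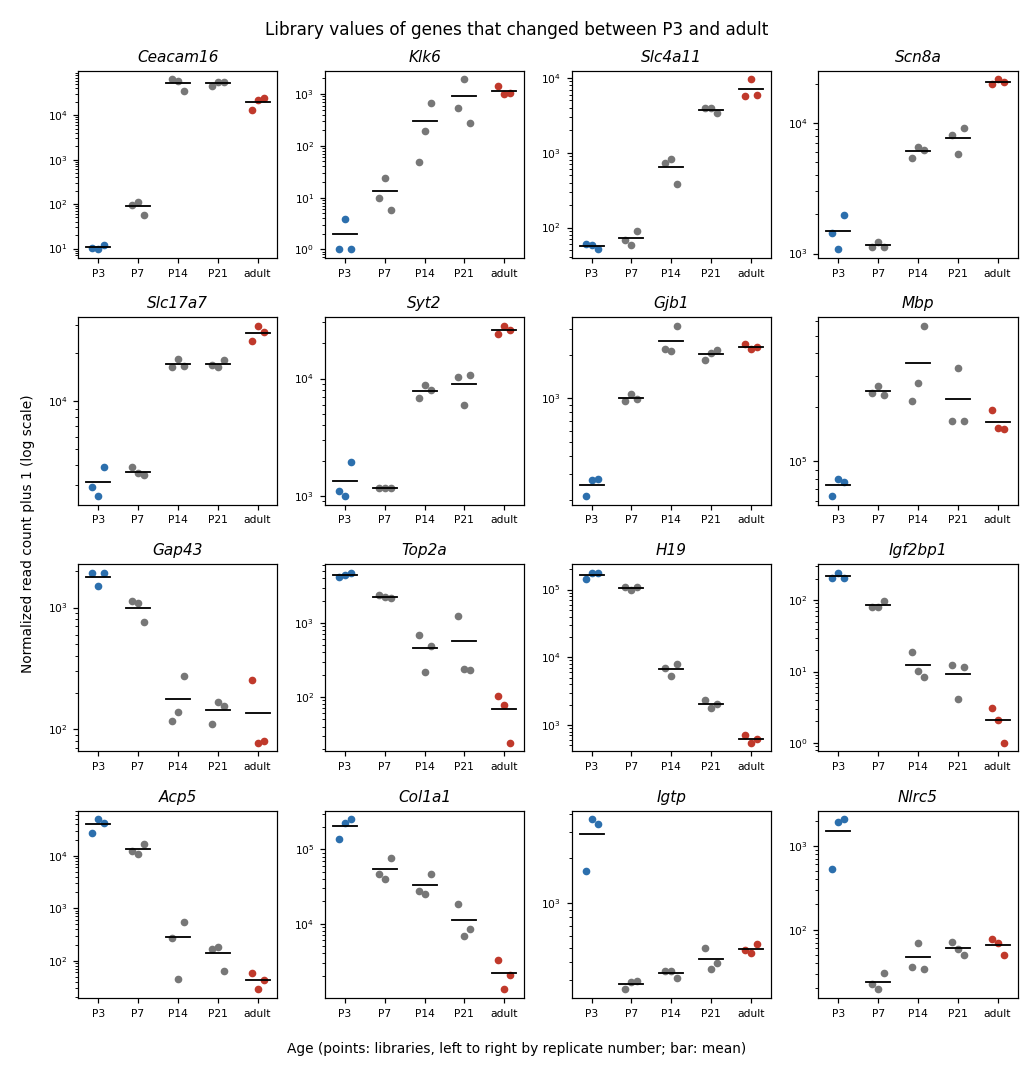
Normalized count + 1 (log axis) of 16 genes in each of the 15 libraries against age; blue points are P3, red points adult and grey points the ages between, and bars are age means. Scn8a, Slc17a7 and Syt2 step up between P7 and P14, and Igtp and Nlrc5 drop between P3 and P7. The 16 genes were picked from those called, and in none of them do the P3 and adult libraries overlap. Over all genes tested, 76.4% had no overlap.

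Myelin genes divided. Of 20 peripheral myelin genes, 14 were called higher and 1 lower (median 0.87), but under quantile normalization only 9 were higher. Gjb1, the gap junction protein of noncompact myelin, rose from 212, 273 and 276 to 2349, 2167 and 2256 (3.16 ± 0.14, adjusted p = 4.43e-10), and Drp2, a partner of periaxin, by 3.11. Mbp, myelin basic protein, rose from 64193, 80202 and 77340 to 192038, 153315 and 150585 (1.16 ± 0.31, adjusted p = 0.0046). Pmp22, a membrane protein of compact myelin, was not called and had 49085 to 73622 at P3 and 58879 to 60549 in adults (-0.07, adjusted p = 0.697), with a mean of 267108 at P7 between them. Cd9, a tetraspanin of the Schwann cell membrane, was not called either (0.06, adjusted p = 0.637), and under quantile normalization Cd9 was called lower at -0.41. Pmp2, the fatty acid binding protein of peripheral myelin, fell from 844, 1032 and 1105 to 38.5, 18.6 and 20.7 (-5.27 ± 0.42, adjusted p = 1.02e-07).

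Oligodendrocyte genes were higher in 10 of 16 cases and lower in 0 (median 1.87). Mog, a surface protein of central myelin, rose from 147, 31.3 and 60.3 to 1589, 1084 and 995 (4.17 ± 0.96, adjusted p = 0.00167). Ermn, a cytoskeletal protein of mature oligodendrocytes, rose by 5.29 and Bcas1 by 1.51. P3 replicate 1 was the highest of its group in Mog and Ermn, and all adult libraries lay above it. Genes of immature and nonmyelinating Schwann cells were not lower as a group, with 9 higher and 2 lower of 14 (median 0.85). The neurotrophin receptor Ngfr stood at 1856, 2124 and 2797 against 7998, 8187 and 7972 (1.85 ± 0.21), the sodium channel Scn7a rose by 1.87, Shh by 1.77 and the transcription factor Jun by 1.07. Gap43 and the transcription factor Sox2 (-0.66 ± 0.15) were the 2 that fell. Of 10 astrocyte genes, 3 were higher and 2 lower (median 0.47), shares below the 34.4% and 34.3% of all genes. Gfap, shared by astrocytes and nonmyelinating Schwann cells, stood at 5273, 665 and 1357 against 17466, 10996 and 12940 (3.01 ± 0.82, adjusted p = 0.00524). P3 replicate 1 was high among the pups, and the Gfap difference was 3.83 without it and 2.34 without P3 replicate 2. Aldoc rose by 1.57, while the connexin Gja1 and the receptor Fgfr3 fell by 1.67 and 2.01.

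All 26 cell cycle genes were called lower (median -3.33), and in all 26 the adult libraries lay below the P3 libraries, against 37.8% of all genes tested. The topoisomerase Top2a stood at 4115, 4429 and 4775 at P3 and 103, 76.6 and 23.1 in adults (-6.26 ± 0.63, adjusted p = 1.06e-06), with -5.62 without adult replicate 3. The proliferation marker Mki67 stood at 3959, 4579 and 5177 against 185, 118 and 85.1 (-5.20 ± 0.52, adjusted p = 8.97e-07), and the mitotic cyclin Ccnb2 at 514, 567 and 543 against 31.2, 13.1 and 14.6 (-4.82 ± 0.51). The mitotic checkpoint kinase Bub1b fell by 5.65 and Plk1 by 3.57, whereas the replication helicase subunit Mcm4 fell by 0.93. Genes of mitosis are known for CCAAT boxes and a downstream TTTGAA element, the cell cycle homology region, in their promoters. In RefSeq promoter windows (GRCm38.p6, 250 bases before to 50 after the start), CCAAT on either strand stood in 21 of 23 windows of the cell cycle genes against 37.4% of all 32851 windows, and TTTGAA on either strand in 11 of 23 against 17.9%. The motifs were searched separately. The 250 bases upstream of Ccnb2 (chr9:70421555-70421804, minus strand) and Top2a (chr11:99024190-99024439, minus strand) are printed as examples and hold 3 and 6 matches to CCAAT. Capitals mark CCAAT and TTTGAA on either strand. The TTTGAA of Ccnb2, 167 bases before the start, lies upstream of its CCAAT matches at 87, 54 and 21 and so not in the downstream place described. The 50 bases after the start are not printed and matches in them were not placed, so a downstream element there would not be seen. Of the 2 TTTGAA matches of Top2a, 1 lies downstream of all 6 CCAAT matches. The stretch upstream of Mki67, not printed, holds CCAAT matches at 188, 166 and 141 bases before the start. Its TTTGAA matches, at 116 and 98, lie downstream of them.
Ccnb2: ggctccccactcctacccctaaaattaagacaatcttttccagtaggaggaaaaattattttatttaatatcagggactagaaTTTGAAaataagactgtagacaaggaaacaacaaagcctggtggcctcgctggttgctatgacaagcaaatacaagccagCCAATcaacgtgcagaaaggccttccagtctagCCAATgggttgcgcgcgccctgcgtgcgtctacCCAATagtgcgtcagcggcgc
Top2a: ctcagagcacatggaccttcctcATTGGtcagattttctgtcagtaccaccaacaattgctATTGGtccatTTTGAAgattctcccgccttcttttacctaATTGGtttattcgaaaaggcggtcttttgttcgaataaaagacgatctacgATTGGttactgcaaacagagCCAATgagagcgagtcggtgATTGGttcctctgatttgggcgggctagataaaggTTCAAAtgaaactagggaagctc
A match describes the letters of the window and is not evidence of binding.

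The 21 cytosolic ribosomal protein genes tested were all called lower (median -1.65), without overlap between the ages (37.8% of all genes tested). Rps3 stood at 24591, 23888 and 20946 at P3 and 7711, 7906 and 7768 in adults (-1.57 ± 0.09, adjusted p = 4.03e-09), and Rplp0, which anchors the ribosomal stalk, fell by 2.34. Ribosomal protein genes have many processed pseudogenes, with which their reads can be shared. Nuclear genes of the respiratory chain rose in 22 of 28 cases with 0 lower, by small amounts (median 0.59). Sdha, the flavoprotein of succinate dehydrogenase, stood at 9839, 9950 and 10049 against 23933, 23758 and 22526 (1.23 ± 0.05, adjusted p = 3.12e-10), and Uqcrc1 and Ndufv1 rose by 1.10 and 0.90.

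Isoforms of cytochrome c oxidase, the terminal enzyme of that chain, divided into 5 higher, 2 lower and 4 not called of 11 (median 0.25). Their called share was near the 68.7% of all genes. Cox8b, the isoform of heart and skeletal muscle, rose from 43.0, 26.6 and 12.2 to 588, 804 and 713 (4.79 ± 0.39, adjusted p = 1.38e-07). The widely expressed Cox4i1 and Cox6a1 rose by 0.65 and 0.71. The muscle isoform Cox7a1 (0.82) and the widely expressed Cox7a2 (0.45) were not called without P3 replicate 3, at 0.57 and 0.40, which left 3 isoforms higher. Cox7a2 was also not called without P3 replicate 2 (0.41) or under quantile normalization (0.18). Cox4i2, the hypoxia-responsive isoform, fell from 135, 150 and 104 to 46.8, 70.0 and 72.9 (-1.03 ± 0.20). Cox7a2l, which takes part in supercomplex assembly, fell by 0.39 and was not called without P3 replicate 1 (-0.33). Cox6a2, at 3.37 to 7.53 against 2.08 to 3.65, lay near 3 reads at both ages. The differences of Cox6b1, Cox6b2 and Cox8a were 0.19, 0.03 and 0.25, none called. Cox8a was called higher in 2 of 26 alternatives, the fit of P3 and adults alone and the fit without P21 replicate 2.

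Cholesterol synthesis genes showed no common direction, with 5 higher and 9 lower of 20 (median -0.20), a called share near the 68.7% of all genes. Acat2 and Mvd, which act before the first sterol is made, fell by 0.98 and 0.85, whereas Pmvk and Fdft1, also before it, rose by 0.40 and 0.30. Of the enzymes of sterol demethylation, Nsdhl fell by 0.60 and Msmo1 rose by 0.27. Fdft1 was not called without adult replicate 1 (0.23) or under quantile normalization (0.18), and Msmo1 was not called under quantile normalization (0.09), with the replicate block, or without P3 replicate 1 or 3 or adult replicate 1 or 3. Sc5d, which acts near the end of the pathway, rose by 0.89. It stood at 778, 723 and 758 against 1472, 1388 and 1321, so the ages did not overlap.

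Imprinted and fetal growth genes fell in 13 of 19 cases and rose in 5 (median -1.85). H19, a maternally expressed RNA of fetal tissues, stood at 142752, 176408 and 178030 at P3 and 720, 545 and 610 in adults (-8.05 ± 0.15, adjusted p = 1.22e-12). Its paternally expressed neighbour Igf2, a fetal growth factor, stood at 99397, 108370 and 120419 against 20752, 12036 and 22150 (-2.62 ± 0.20, adjusted p = 7.43e-08). Igf2bp1, which binds Igf2 RNA in the fetus, fell from 205, 243 and 205 to 2.08, 1.09 and 0 (-6.87 ± 0.49), a ratio of reads of 195 with a 95% counting interval of 66.6 to 949. Grb10, Plagl1 and Mest, which are growth regulators, fell by 4.03, 2.52 and 1.70. The risers were the noncoding RNA Meg3, from 36344, 28330 and 45438 to 123047, 129410 and 119296 (1.78 ± 0.25, adjusted p = 2.7e-05), Nnat (1.74), Lin28b (0.91), Rtl1 (0.62) and Ndn (0.33), the last not called under quantile normalization (0.02). Rtl1 lies opposite an antisense transcript, and the sources used here do not say that counting used strand.

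Interferon-related genes were lower in adults in most cases. All 15 interferon-inducible GTPase genes, cell-autonomous defence proteins of the IRG and GBP families, were called lower (median -2.36). None overlapped between the ages, while 37.8% of all genes tested lay wholly below. Iigp1 stood at 3477, 6198 and 5640 against 249, 254 and 271 (-4.26 ± 0.19, adjusted p = 4.4e-10), and Igtp at 1642, 3667 and 3415 against 478, 458 and 526 (-2.49 ± 0.23, adjusted p = 5.18e-07). Tgtp2, Gbp4, Gbp7, Gbp10 and Irgm2 fell by 4.05, 3.23, 3.18, 2.59 and 2.01; several of these genes have near-identical copies, so reads may be split among them. P3 replicate 1 was the lowest P3 library in Iigp1, Igtp, Gbp7 and Irgm2, and still lay above all adult libraries. The interferon-stimulated response element holds a repeated GAAA, searched here on both strands as GAAA, any 2 bases and GAAA again. It stood in 9 of the 10 RefSeq promoter windows (GRCm38.p6) matched to these genes, against 3.44% of all 32851 windows; 9 of the 15 genes had a window. The 250 bases before the start of Gbp7 (chr3:142530086-142530335, plus strand), Igtp (chr11:58199306-58199555, plus strand) and Irgm2 (chr11:58214727-58214976, plus strand) are shown for the place of the match, in capitals, which begins 53, 34 and 64 bases upstream.
Gbp7: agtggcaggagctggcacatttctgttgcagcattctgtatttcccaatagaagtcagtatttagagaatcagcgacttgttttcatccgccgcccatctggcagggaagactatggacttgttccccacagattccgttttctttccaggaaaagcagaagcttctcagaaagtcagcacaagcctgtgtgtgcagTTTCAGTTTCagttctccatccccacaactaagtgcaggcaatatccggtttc
Igtp: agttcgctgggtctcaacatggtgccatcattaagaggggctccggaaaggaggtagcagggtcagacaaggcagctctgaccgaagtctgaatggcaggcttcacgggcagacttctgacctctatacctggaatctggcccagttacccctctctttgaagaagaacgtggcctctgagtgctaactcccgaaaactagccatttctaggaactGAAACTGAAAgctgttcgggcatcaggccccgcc
Irgm2: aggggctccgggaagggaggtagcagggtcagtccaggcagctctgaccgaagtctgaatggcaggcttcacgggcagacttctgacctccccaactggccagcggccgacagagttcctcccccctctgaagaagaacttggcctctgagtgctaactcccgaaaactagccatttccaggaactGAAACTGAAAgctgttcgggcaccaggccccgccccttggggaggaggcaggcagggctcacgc
These are matches to letters only. The Igtp and Irgm2 windows hold the same 10 letters, and the Gbp7 window holds them on the other strand.

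Other interferon response genes fell in 16 of 24 cases and rose in 2 (median -1.01), and the motif stood in 10 of 19 of their windows. Ifi44 stood at 874, 1112 and 1613 against 83.2, 141 and 105 (-3.43 ± 0.30, adjusted p = 2.67e-07). Zbp1, a nucleic acid sensor, fell by 4.53, the ubiquitin-like Isg15 by 1.75 and the chemokine Cxcl10 by 2.60. The chemokine Cxcl9 was at 64.1, 438 and 422 against 7.28, 4.38 and 3.65 (-5.28 ± 0.86), with P3 replicate 1 the low pup library and -6.19 without it. The 2 that rose were Ifit1, from 378, 525 and 1001 to 1002, 1628 and 1507 (1.21 ± 0.29, adjusted p = 0.00202), and Ifit2 (0.43 ± 0.12). Of 17 antigen presentation genes, 13 fell and 0 rose (median -1.74), and 1 of 14 windows held the motif. Nlrc5, the activator of MHC class I genes, stood at 529, 1926 and 2072 against 76.0, 67.8 and 48.6 (-4.33 ± 0.45, adjusted p = 1.45e-06), with -4.96 without P3 replicate 1. The immunoproteasome subunits Psmb8 and Psmb9 fell by 2.49 and 2.95 and the class II editor H2-DMb1 by 1.91.

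Macrophage genes were lower in 19 of 21 cases with 0 higher (median -1.99), and their summed share of the normalized counts was 0.109% to 0.142% at P3 and 0.0236% to 0.0327% in adults. Csf1r, the receptor that macrophages need to survive, stood at 8722, 13013 and 12068 against 2608, 2136 and 2186 (-2.27 ± 0.18, adjusted p = 1.03e-07). Cd68, a lysosomal protein that osteoclasts share, fell by 3.81, Tmem119 by 3.09, Fcer1g by 2.81 and Mrc1 by 2.55. Macrophage markers fell with the immune genes above between the end points. At P7 the macrophage median was -0.53, when the medians of the interferon response and GTPase lists were -2.31 and -2.32. The part of macrophages in the falls of those lists was not tested.

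Osteoclast genes had the lowest median of the 34 lists. All 11 fell (median -7.64), and their summed share went from 0.272% to 0.453% at P3 to 0.00329% to 0.00438% in adults. The bone-resorbing protease Ctsk stood at 35144, 61844 and 52800 against 571, 563 and 407 (-6.58 ± 0.21, adjusted p = 3.56e-11), the integrin Itgb3 fell by 5.37 and the osteoclast transcription factor Nfatc1 by 2.29. Of 13 osteoblast and osteocyte genes, 12 fell (median -3.79). The bone sialoprotein gene Ibsp stood at 48158, 84981 and 70820 against 953, 700 and 642 (-6.45 ± 0.38, adjusted p = 5.82e-09), and the lineage factors Sp7 and Runx2 fell by 4.03 and 3.79 and the endopeptidase gene Phex by 4.30. Spp1, osteopontin, went the other way, from 75124, 97750 and 82752 to 117619, 121170 and 119677 (0.50 ± 0.16, adjusted p = 0.015), and was not called without P3 replicate 1 (0.41). Spp1 is also made outside bone.

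Cartilage genes fell in 12 of 15 cases and rose in 1 (median -2.93), and their summed share was 1.57% to 1.65% at P3 and 0.125% to 0.157% in adults. Col9a1 stood at 119938, 103011 and 99207 against 1421, 1806 and 1328 (-6.15 ± 0.13, adjusted p = 1.35e-12), and Col2a1, the main cartilage collagen, fell by 5.47. Col9a2 and Col9a3 fell by 2.91 and 2.93. Acan, the proteoglycan aggrecan, rose from 2227, 3547 and 4367 to 6037, 8702 and 5542 (1.03 ± 0.29, adjusted p = 0.00685). Of 23 fibroblast and matrix genes, 22 fell and 0 rose (median -2.92), with a summed share of 2.70% to 3.72% at P3 and 0.302% to 0.358% in adults. Col1a1 stood at 138022, 228989 and 253286 against 3299, 1305 and 2022 (-6.60 ± 0.42, adjusted p = 1.12e-08), and Col1a2 at 238025, 359082 and 377896 against 21133, 19106 and 17722 (-4.05 ± 0.19). The fetal fibrillin Fbn2 fell by 5.51, Col3a1 by 4.94 and Lum, a collagen-binding proteoglycan, by 2.94. P3 replicate 1 was the lowest of the pups in Col1a1, Col1a2, Ctsk and Ibsp, and far above every adult library. The bone, cartilage and matrix lists were thus high in the same libraries in which the neuronal lists were low, and their part in the neuronal differences was not tested.

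Lists of blood-forming lineages differed in how many members fell. Of 11 erythroid genes, 9 fell and 0 rose (median -2.38). The beta globin Hbb-bs stood at 4124, 4623 and 2278 against 537, 955 and 599 (-2.38 ± 0.38, adjusted p = 7.38e-05), the haem synthesis enzyme Alas2 fell by 2.21, and the alpha globin copies Hba-a1 and Hba-a2, which can share reads, by 2.01 and 2.12. Among 13 B lymphoid genes 6 fell, a count of 2 without P3 replicate 2 and 3 without adult replicate 1. The recombinase Rag1 fell from 356, 298 and 240 to 44.7, 55.8 and 37.7 (-2.67 ± 0.43, adjusted p = 9.31e-05) and the antigen receptor subunit Cd79b by 2.65. Of 10 neutrophil genes tested, 2 were lower, a share below the 34.3% of all genes. That count was 8 without adult replicate 1 and 0 without adult replicate 3. Leaving out P3 replicate 2, P3 replicate 3 or adult replicate 2 gave 1. The neutrophil genes called were Mmp8, at 133, 225 and 153 against 77.0, 35.0 and 9.72 (-2.42 ± 0.73, adjusted p = 0.00929), and Retnlg (-2.23), the second of which was not called without P3 replicate 2 or 3 or adult replicate 2 or 3 (-1.40 to -2.48). Mmp8 was -3.09 without adult replicate 1 and was not called without adult replicate 3 (-1.66).

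Genes of cochlear tissue next to the nerve moved in both directions. Of 9 fibrocyte genes of the lateral wall and spiral ligament, 5 rose and 3 fell (median 0.89), and their summed share was 0.209% to 0.433% at P3 and 0.912% to 1.37% in adults. Coch, cochlin, which alone made up a large part of that adult sum, stood at 8162, 6912 and 6218 against 275682, 430273 and 337576 (5.60 ± 0.25, adjusted p = 5.07e-10). Otos, otospiralin, rose by 4.35. The secreted protein Otor fell from 73115, 33348 and 24115 to 2050, 2843 and 2457 (-4.00 ± 0.37, adjusted p = 4.5e-07), and the mesenchymal transcription factors Pou3f4 and Tbx18 fell by 1.66 and 1.80. Of 10 tectorial membrane and cochlear epithelium genes tested, Ceacam16 rose and 8 fell (median -3.23). Tecta, which forms the tectorial membrane with Tectb, stood at 22758, 30844 and 35914 against 163, 155 and 280 (-7.25 ± 0.52, adjusted p = 3.49e-08), and the protease Tmprss9 fell by 4.08. Thus Ceacam16 moved opposite to both other tectorial membrane genes named here.

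Hair cell genes had no common direction, with 2 higher and 3 lower of 13 (median -0.08), a smaller called share than over all genes. Ush1c, a protein of the hair bundle, stood at 1626, 1964 and 1645 against 3761, 4327 and 4614 (1.28 ± 0.13, adjusted p = 8.69e-07). The unconventional myosin Myo6 was called higher at 0.29, a difference of -0.02 under quantile normalization. The fate-setting transcription factor Atoh1 fell from 58.2, 43.7 and 55.6 to 0, 0 and 3.65 (-4.99 ± 0.97), with 3 adult reads, a ratio of reads of 47.4 (95% counting interval 15.9 to 232) and -5.73 without adult replicate 3. Pou4f3 and Gfi1 fell by 1.13 and 1.47. Adult replicate 3 was the highest adult library in Pou4f3, at 120 against 57.2 and 51.4, and in Gfi1, at 258 against 88.4 and 101, and 5 hair cell genes were lower without it.

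Melanocyte and stria vascularis genes fell in 7 of 10 cases (median -3.18) and differed widely among the pups. The potassium channel subunit Kcne1 stood at 3383, 1628 and 250 against 6.24, 40.5 and 18.2 (-5.96 ± 1.51, adjusted p = 0.00319). The pigment enzyme Dct stood at 6755, 2784 and 379 against 21.9, 102 and 43.7 (-5.35 ± 1.49, adjusted p = 0.00592). P3 replicate 3 was lowest of its age in both and still above all adult libraries. Without P3 replicate 1 the difference of Dct was -4.45 and that of Kcne1 -5.16; without P3 replicate 3 they were -6.52 and -7.03, and Kcne1 was -5.30 without adult replicate 1 and -6.56 without adult replicate 2. The pigment enzyme Tyrp1 went the other way, from 9.27, 13.3 and 14.1 to 15.6, 26.3 and 29.2 (0.87 ± 0.35, adjusted p = 0.0407). Tyrp1 was not called in 10 of 25 alternatives. Among them were the fits without P3 replicate 1 or 2 or adult replicate 2 or 3 (0.70 to 0.94) and without P7 replicate 4, 5 or 6. The others were DESeq2, P3 and adults alone, and the fit without the 4 libraries low in Eif2s3y. The summed share of the list was 0.0226% to 0.0765% at P3 and 0.0172% to 0.0221% in adults.

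Endothelial genes split evenly, 6 higher and 6 lower of 15 (median 0.16), each near the 34.4% and 34.3% of all genes. The 6 that rose included transporters of the blood-brain barrier, namely the efflux pump Abcb1a, from 797, 542 and 642 to 3358, 2919 and 3011 (2.24 ± 0.14, adjusted p = 7.21e-09), Slco1a4 (2.13), the glucose transporter Slc2a1 (1.67) and the lipid carrier Mfsd2a (1.16). The other two were genes of endothelium in general, the clotting protein Vwf (1.72) and the growth factor receptor Flt1 (1.67). The 6 that fell were the growth factor receptor Kdr, from 2322, 2953 and 3174 to 1265, 1054 and 993 (-1.35 ± 0.20, adjusted p = 4.9e-05), Plvap, a protein of fenestrated vessels (-1.24), Tie1 (-0.78), Erg (-0.59), Tek (-0.42) and Cdh5 (-0.40). Cdh5 was not called without P3 replicate 1 (-0.44), P3 replicate 3 (-0.32), adult replicate 2 (-0.31) or adult replicate 3 (-0.43). Skeletal muscle genes were near the floor, and 1 of 8 tested was lower, Tnnt3 at 43.0, 62.6 and 39.6 against 7.28, 9.84 and 6.08 (-2.49 ± 0.49). That count was 2 without P3 replicate 3, P14 replicate 3 or adult replicate 1. Of 6 central neuron genes 2 were lower, near the 34.3% of all genes. Without adult replicate 1, 4 were lower. Gad1, a GABA synthesis enzyme, fell from 551, 548 and 492 to 104, 74.4 and 107 (-2.48 ± 0.41, adjusted p = 0.00012).

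**Figure D3:**
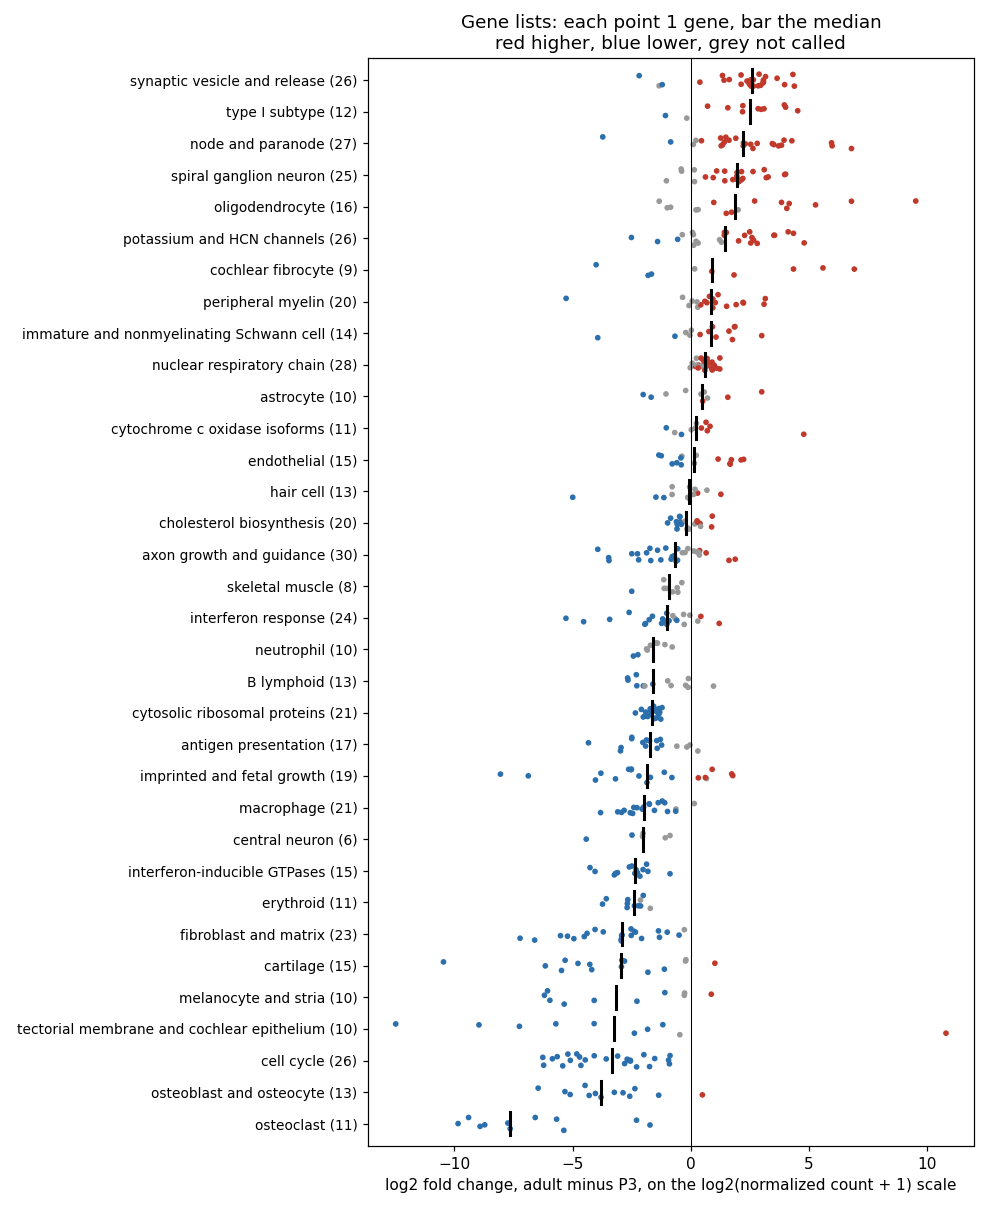
Log2 difference of adult minus P3 for each member of the 34 gene lists (points) with the list median (bar). Osteoclast genes lie lowest with a median of -7.64, synaptic, subtype, node and spiral ganglion neuron lists have the highest medians (2.60, 2.53, 2.23 and 1.96), and the cell cycle, ribosomal and GTPase lists lie wholly below 0.

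The ages between show when each change took place. Among the 2636 genes at least 2-fold higher in adults, 50% of the log2 change was first reached at P7 for 302 genes (11.5%), at P14 for 1530 (58.0%), at P21 for 278 and only in adults for 526. Among the 2883 at least 2-fold lower, the counts were 452 (15.7%), 1512 (52.4%), 474 and 445. The steps are unequal in days, and these shares are a description with no test. Among the neuronal genes that rose at least 2-fold, the step was first reached at P14 in 14 of 18 spiral ganglion neuron genes, 18 of 22 node and paranode genes and 14 of 22 synaptic genes, with 7 synaptic genes only in adults. Falls of cell cycle genes (19 of 23), ribosomal protein genes (18 of 21) and osteoclast genes (10 of 11) were also first reached at P14.

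Immune and myelin genes were earlier. All 14 interferon response genes, 13 of 14 GTPase genes and 12 of 13 antigen presentation genes that fell at least 2-fold had made the step by P7, as had 7 of 8 peripheral myelin genes and 7 of 9 oligodendrocyte genes that rose. Bone matrix genes were late, 7 of 12 osteoblast and osteocyte genes at P21 and 5 only in adults. The 9 erythroid and 6 B lymphoid genes reached it only in adults, after list medians of 1.69 and 1.26 above P3 at P21. The interferon response median was -2.31 at P7, -1.33 at P21 and -1.01 in adults, so the adult level was nearer to that of P3 than the P7 level. Peripheral myelin reached a median of 1.91 at P14 and 0.87 in adults.

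**Figure D4:**
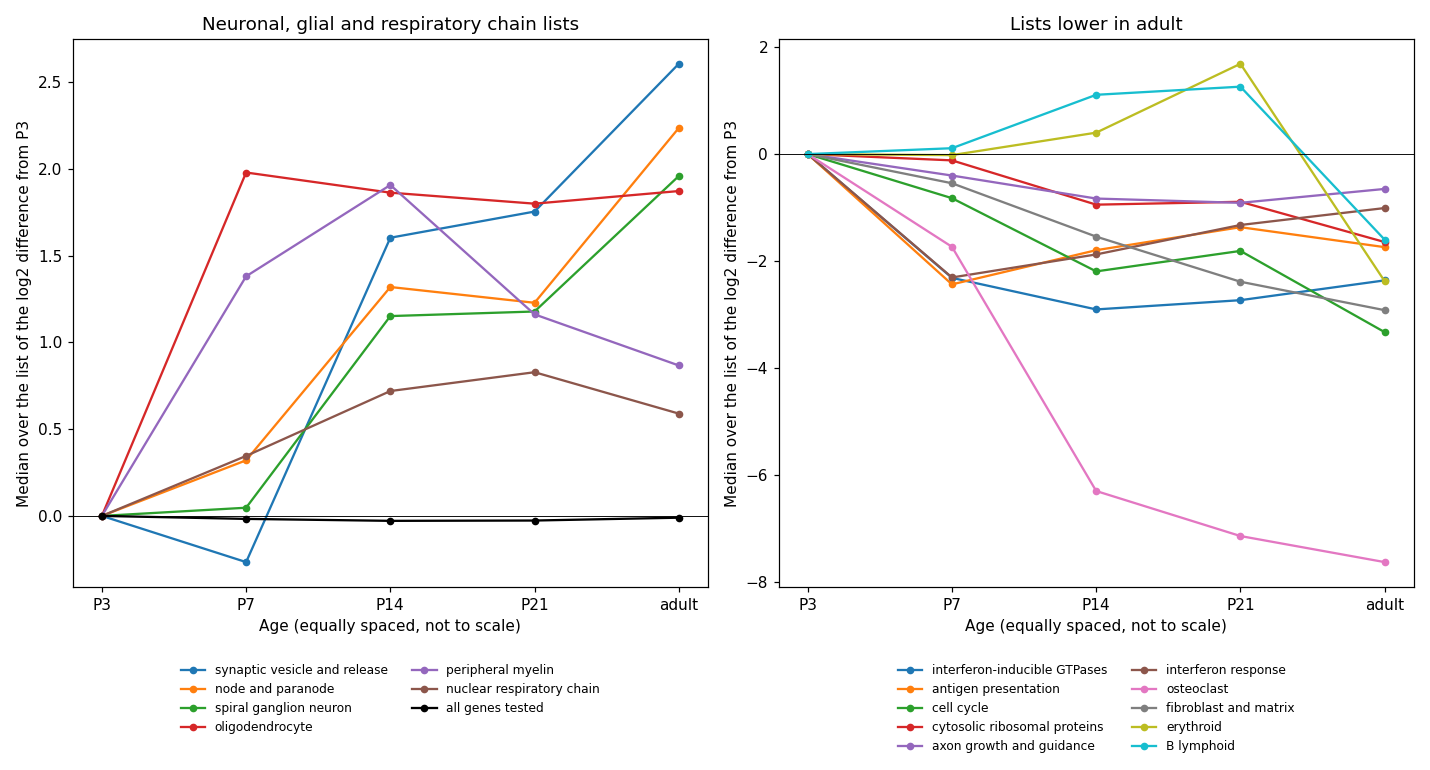
Median log2 difference from P3 over the members of each list at P7, P14, P21 and adult, in 2 panels, one for lists of neurons, glia and the respiratory chain with all genes tested, and one for lists lower in adults. Spiral ganglion neuron, synaptic and node lists lie at -0.27 to 0.32 at P7 and are higher at P14, interferon response drops to -2.31 at P7 and is at -1.01 in adults, and erythroid and B lymphoid lists are above 0 at P21 and below it in adults.

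The end points hide part of the course. The joint test of the 5 ages called 14274 genes (85.4%), and 3066 of these (18.3% of all tested) were not called in adult against P3. The 5 with the largest excess at a middle age were the retinoic acid responder Rarres1, Sap25, the protease Ctse, the hair cell calcium buffer Ocm and the basement membrane collagen Col4a3. Ctse, at 56.5, 103 and 34.8 against 27.1, 19.7 and 15.8 (-1.49 ± 0.68, adjusted p = 0.0657), was called lower in 6 of 26 alternatives, among them DESeq2 (-1.64), the fit of P3 and adults alone, the replicate block (adjusted p = 0.0336) and the fit without P3 replicate 3 (-1.86). Rarres1 had age means of 171, 296, 2349, 567 and 151 from P3 to adults, and Col4a3 of 714, 2677, 3268, 1395 and 626. Ocm, whose mean reached 3204 at P21, stood at 260, 359 and 274 at P3 and 211, 177 and 876 in adults, where replicate 3 alone was high, and without adult replicate 3 its difference was -0.60 and not called.

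The 5 genes lowest at a middle age were the nicotinic receptor subunits Chrna6 and Chrnb3, the secreted neuropeptide precursor Vgf, the G protein regulator Rgs8 and Syt1. Chrna6 stood at 362, 62.6 and 306 at P3 and 1370, 6.56 and 207 in adults, and Chrnb3 at 229, 58.8 and 253 against 1779, 24.1 and 295. Vgf stood at 212, 96.8 and 274 against 1477, 32.8 and 124, and Rgs8 at 339, 156 and 295 against 1132, 44.8 and 128. In all 5 genes adult replicate 1 was the highest of the 6 libraries and P3 replicate 2 was the lowest pup. More widely, 78 genes of 13549 with at least 100 in any adult library were at least 4-fold higher in adult replicate 1 than in both other adult libraries, and 0 were 4-fold lower. For these genes an adult mean rests on 1 library.

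**Figure D5:**
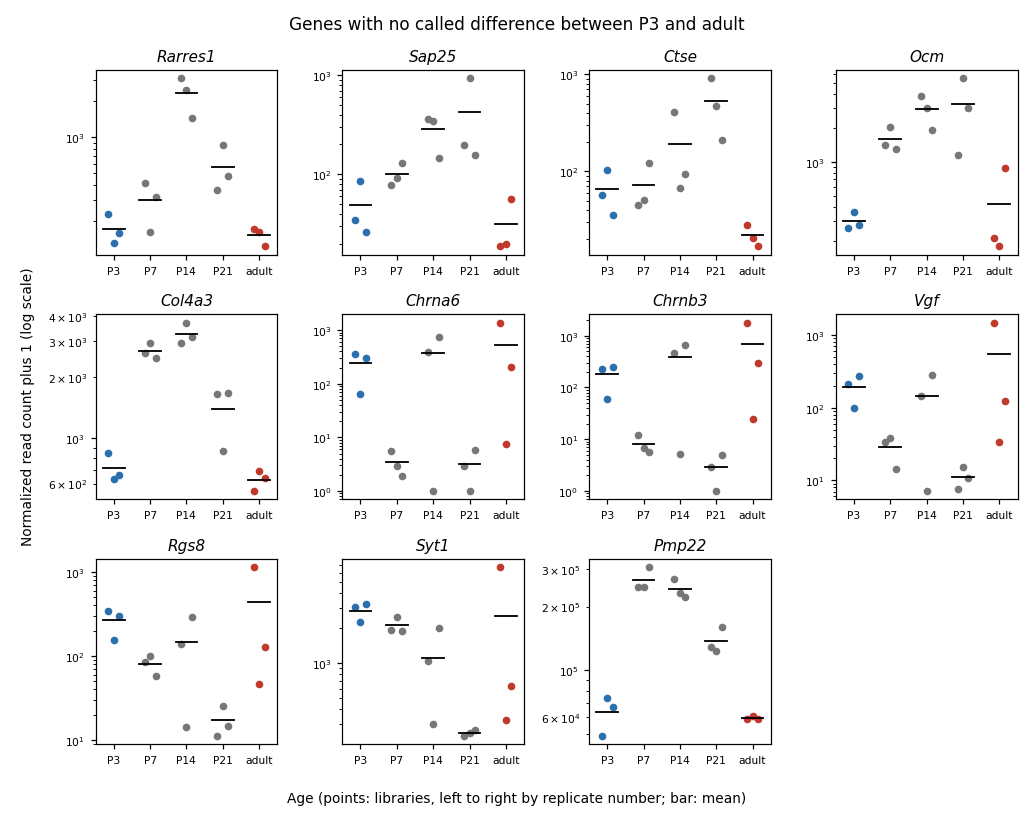
Normalized count + 1 (log axis) in each of the 15 libraries against age for the 5 genes highest and the 5 lowest between the end points, with Pmp22; blue points are P3, red points adult, grey points the ages between and bars age means. Pmp22 peaks at P7 with a mean of 267108, and 1 adult library lies far above the other two in Chrna6, Chrnb3, Vgf, Rgs8 and Syt1.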

How the data were processed

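Nerves of 15 mice were sequenced, 3 at each of 5 ages. The authors deposited 1 table of 18536 genes whose values are read counts per gene divided by a size factor for each library (a scaled signal, here called normalized count); the submitters' processing notes name Partek, TopHat2, DESeq2 and the genome build mm10, with no versions or settings. Whether counting used strand is not given in the sources used here, so reads of a gene and of an antisense partner cannot be told apart. Whole reads were recovered from the deposited values: 99.9% of positive values came out whole within 0.1 of a read. All columns were mapped to samples by title.

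Genes with at least 10 normalized counts in at least 3 libraries were tested in 1 fit of all 15 libraries with limma 3.58.1 (trend and robust empirical Bayes, R 4.3.3, 10 residual degrees of freedom) on log2(normalized count + 1), which understates the change of low genes, two-sided, called at an adjusted p under 0.05. An F test over the 5 ages came from the same fit. Tests were tried on simulated data. Ratios of reads have exact 95% intervals that cover counting error only. Alternatives were edgeR 4.0.16 and DESeq2 1.42.0 on the recovered reads, TMM and quantile normalization, other filters and pseudocounts, P3 and adult alone, a replicate block, each library left out, and no libraries low in Eif2s3y. The comparison and the 34 lists were chosen with earlier results of these data known. Named genes are the 8 largest rises and 8 largest falls among genes called, with no overlap of the ages and at least 10 CPM in the higher age, up to 4 members of each list by adjusted p and those called against its direction, all cytochrome c oxidase isoforms, 5 genes highest and 5 lowest between the end points, and the sex markers. Named after their values were seen were Scn8a, Syt2, Kcnc1, Nefh, Mbp, Pmp22, Cd9, Mog, Tubb2b, Top2a, Mki67, Ccnb2, Mcm4, Igf2, Igf2bp1, Col1a1, Igtp, Gbp7, Irgm2, Isg15, Csf1r, Dct, Tecta, Ngfr, Jun, Vwf, Flt1 and the genes under the other observations. Vwf and Flt1 were not followed through the alternatives. Some genes that these rules select are not reported here.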

Additional observations from a re-analysis of the deposited data

How the results depend on the processing

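Among the counts over all genes and over the main lists, 1 moved by over 1.5 times under an alternative: the higher genes of peripheral myelin went from 14 to 9 under quantile normalization. The counts of higher and lower genes were 5790 and 5669 with edgeR on the recovered reads and 5894 and 5908 with DESeq2, and 5318 to 6128 and 5254 to 6065 when 1 library was left out, with 5197 to 5542 at least 2-fold changed and 13607 to 14460 in the joint test. With the replicate number as a block they were 5474 and 5443, with 12605 in the joint test. The labels do not say that same-numbered P3 and adult libraries are paired. Their deviations correlated at 0.05, 0.17 and -0.09, and those of other-numbered pairs at -0.20 to 0.14. Whether same-numbered libraries shared a batch was not tested. Differences that changed sign under quantile normalization were those of Cox6a2 (0.26), Cox6b1 (-0.12), Cox8a (-0.065), Myo6 (-0.021), Rarres1 (0.22) and Cd9 (-0.41). Those of Chrna6 and Rgs8 were 1.12 and 0.73 with edgeR and, to the same 2 decimals, with DESeq2. With 1 library left out, differences of both signs were found for Chrna6 (-2.28 to 1.47), Chrnb3 (-0.82 to 2.26), Vgf (-1.46 to 1.26), Rgs8 (-1.71 to 0.61), Ocm (-0.60 to 0.55), Rarres1 (-0.33 to 0.067), Cox6b2 (-0.0725 to 0.12) and Pmp22 (-0.24 to 0.050), none of them called in the reported fit. Without the 4 libraries low in Eif2s3y, Cox6b2 was -0.033 and Ocm -0.60, the latter called lower (limma adjusted p = 0.0482). The causes were not tested. Differences of genes with few reads at an age depend on the pseudocount: with 10 in place of 1 they were 6.74 for Klk6, 3.85 for Prl, -3.24 for Cacna1s, -10.66 for Oc90 and -7.59 for Atp6v0d2, and with 0.1 they were 11.87, 7.85, -5.49, -12.91 and -9.87.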

Other observations

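Several groups of genes outside the lists above were gathered after their values were seen, so their counts describe a choice. Over all genes tested, 34.4% were called higher and 34.3% lower. Of 16 circadian clock genes, 12 were called higher in adults and 2 lower (median 1.18, limma). Nr1d1, a repressor in the clock loop, stood at 340, 361 and 419 normalized counts at P3 and 4676, 3175 and 4795 in adults (3.48 ± 0.17, adjusted p = 1.24e-09). Per2 rose from 455, 490 and 482 to 1961, 3686 and 1607 (2.25), and the output factors Dbp and Ciart rose by 1.92 and 2.09. Arntl, the activator that Nr1d1 represses, fell from 895, 883 and 899 to 511, 319 and 716 (-0.87 ± 0.20). The adult libraries spread more than the P3 libraries in Per2 and Arntl, with adult replicate 2 highest in Per2 and lowest in Arntl. The labels give no time of day of collection.

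All 11 transporters and secreted carriers of meninges and blood-nerve barriers that were examined rose (median 3.53). Ptgds, the prostaglandin D synthase of meninges, stood at 54405, 12171 and 18606 at P3 and 459268, 430195 and 582087 in adults (4.40 ± 0.38, adjusted p = 2.23e-07), with 5.01 without P3 replicate 1, the high pup library. The iron carrier Trf rose from 5831, 2925 and 2995 to 83558, 126401 and 88523 (4.72 ± 0.26), Slc22a2 by 4.63, Igfbp6 by 4.18 and Apod by 3.53. Genes of the sarcomere and of muscle calcium release split, 11 higher and 9 lower of 24, the lower share near the 34.3% of all genes tested. Neb stood at 66.6, 96.8 and 111 against 2367, 3735 and 3037 (5.05 ± 0.37), Tcap rose by 5.23 and the neuronal and cardiac release channel Ryr2 by 3.14. The skeletal muscle release channel Ryr1 fell by 2.81, Lmod3 by 4.72 and Cacna1s by 5.03, the last from 49.7, 151 and 152 to 2.08, 2.19 and 2.43. Also higher in adults were Faim2, from 394, 384 and 436 to 15780, 16645 and 15743 (5.31 ± 0.11, limma adjusted p = 1.22e-12), and Nos1 (4.95). The pituitary hormone gene Prl held 4 reads at P3 and 411 in adults, at 129, 186 and 142 normalized counts, a ratio of reads of 126 (95% counting interval 48.7 to 464). Gh stood at 58.2, 41.8 and 0.942 against 591, 970 and 149 (4.70) and was not called without P3 replicate 3 (3.14), adult replicate 1 (4.49) or adult replicate 2 (4.13). Without P3 replicate 2 or adult replicate 3 the Gh difference was 5.37 or 5.48, and without P3 replicate 1 it was 5.60.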
